A study of Mus musculus with 4 samples.

Results

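The 52 genes described here encode the DNA damage repair and checkpoint machinery of mouse T helper 17 (Th17) cells, measured by RNA sequencing in 4 libraries. They were chosen by name, from Trp53 and its regulators through the checkpoint kinases to the main repair pathways, and all 52 were found among the 50600 genes of the deposited tables. Levels played no part in the choice, although the genes were picked with earlier results of these data known. Every library comes from primary Th17 cells of strain C57BL/6NJ; the RNA is labelled total, while the linked library protocol is for poly(A) RNA. A further linked protocol describes differentiation of CD4 T cells in culture. The libraries carry biological replicate numbers 1 to 4 under 1 donor label, sex was not collected and age is given as unknown. They form a single group, with no untreated, irradiated or resting cells to set it against. The labels do not say whether the replicates were separate cultures or animals, so the spread between them may be technical in part.

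Dividing cells meet broken, mispaired and chemically altered DNA at every replication, and each kind of damage has its own repair route. The kinases ATM and ATR sense breaks and stalled forks and pass the signal to CHK1, CHK2 and p53, which slow the cell cycle or start cell death. Homologous recombination copies an intact sister chromatid, and end joining seals breaks directly. The Fanconi anaemia pathway undoes cross-links between strands, and excision pathways replace damaged or mispaired bases. Activated T cells divide fast, and end joining factors have a second role in lymphocytes, since they seal the breaks made during antigen receptor rearrangement in the thymus.

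Between 28555677 and 58104663 fragments were counted per library. The Th17 markers were high, with the cytokine genes Il17f at 11569 ± 117 and Il17a at 4436 ± 179 TPM (SD, n = 4). The co-receptor gene Cd4 was at 346 ± 16.1, the chemokine receptor gene Ccr6 at 163 ± 8.63 and the lowest of the 7, the receptor gene Il23r, at 31.8 ± 2.02 TPM. By contrast, none of 11 markers of other cell types reached 1 TPM in every library. Those marker levels summed to between 0.992 and 1.71 TPM, the highest were Csf1r, Epcam, Col1a1 and Cd79a at means of 0.580, 0.495, 0.155 and 0.112 TPM, and Lyz2, Ncr1, S100a8, Hbb-bs and Pf4 had 0 counts in all libraries. TPM is the count divided by exon length and scaled to the same total in every library. Since these are bulk samples, a lower level cannot tell fewer expressing cells from less RNA per cell.

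All 52 genes were expressed. Each was at 1 TPM or more in every library, against 10223 of 21764 protein-coding genes (47.0%), and 51 kept above 5 TPM in every library. The median of their mean levels was 25.2 TPM, against 31.3 TPM over those 10223 detected coding genes and 0.575 TPM over all coding genes. Most lay in a middle range: 5 were under 10 TPM, 37 between 10 and 50, 5 between 50 and 100, and 5 at 100 TPM or more. The highest member, Apex1, stood 74.5-fold above the lowest, Rad51c. Together the 52 genes held 2320, 2359, 2299 and 2296 TPM in replicates 1 to 4. Counts behind the values ran from 116, for Rad51b in replicate 1, to 22493, for Parp1 in replicate 3.

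**Figure D1:**
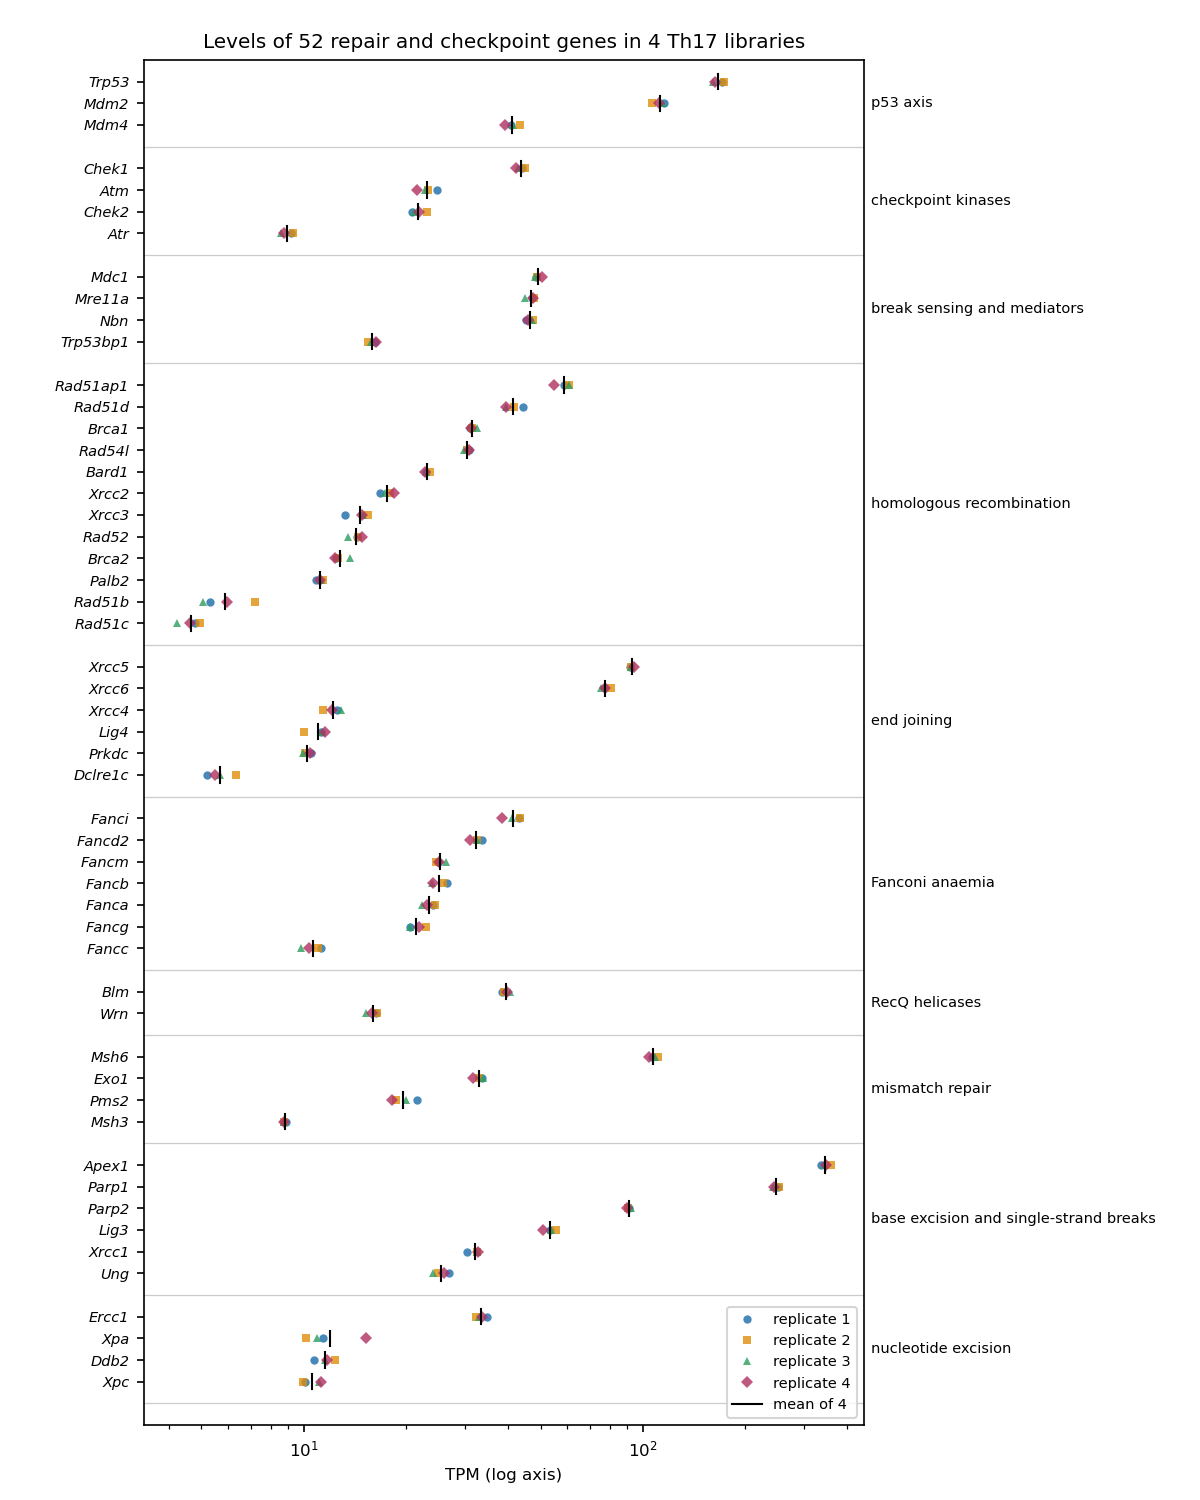
Level of each of the 52 genes in TPM on a log axis, 1 marker for each of the 4 libraries and a black bar for their mean, grouped by role and sorted by mean within each role. Base excision genes reach furthest right, with Apex1 at 346 TPM, and for most genes the 4 markers overlap; Xpa and Rad51b spread the most.

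The p53 axis was among the high groups. Trp53, which encodes the transcription factor p53 (ENSMUSG00000059552.13, chr11:69580359-69591873 on the plus strand of mm10), was at 171, 173, 161 and 164 TPM in replicates 1 to 4, a mean of 167 ± 5.81 TPM (SD, n = 4). Mdm2, the ubiquitin ligase that sends p53 to degradation and is itself a p53 target, was at 116, 107, 115 and 112 TPM. Mdm4, a relative that masks the p53 activation domain, was at 40.9, 43.6, 41.4 and 39.2 TPM. Trp53 was the highest and Mdm4 the lowest of the 3 in every library, with no overlap between them. The log2 ratio of Mdm2 to Mdm4 was 1.44 ± 0.10. With the longest coding transcript as the length it was 1.08. In counts scaled to library size, without exon length, it turned to -0.10, so the order of these 2 genes rests on length scaling. An exact two-sided sign-flip test on 4 libraries cannot go below a p of 0.125, the value that every pair of one constant sign took. After Benjamini-Hochberg adjustment over the 20 pairs compared, the sign-flip p of each of these pairs was 0.132. For pairs, therefore, the size of the ratio against its SD and the number of libraries are given.

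Genes known as p53 targets were expressed too. Of 23 listed targets, 22 were at 1 TPM or more in every library, with a median of 48.4 TPM. Cdkn1a, the cyclin-dependent kinase inhibitor p21, was at 447, 381, 418 and 426 TPM. Ccng1, cyclin G1, was at 401 ± 18.8 TPM, the death effector Bax at 270.4 ± 4.95 TPM and the mTOR inhibitor Ddit4 at 221 ± 16.1 TPM. Cdkn1a thus exceeded Trp53 itself in all 4 libraries. Of the Bax exon bases, 12.2% overlap another gene on the same strand. Fragments there were not counted, so the Bax count leaves them out. Eda2r, a death receptor of the TNF receptor family, was the lowest at 0.567 ± 0.107 TPM. None of the 23 differed between libraries in the edgeR deviance test, and 2 did at an unadjusted p under 0.05 (8.70%, against 4.48% of all 12434 genes tested). With no cells lacking p53 or treated to damage DNA, these levels do not show how much of the expression depends on p53.

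Among the checkpoint kinases, Chek1, the kinase downstream of ATR, was the highest at 44.1, 45.05, 43.0 and 42.4 TPM. Chek2, the kinase downstream of ATM, was at 21.8 ± 0.994 TPM, so that the log2 ratio of Chek1 to Chek2 was 1.00 ± 0.06 and positive in 4 of 4 libraries. Atr was the lowest at 9.16, 9.31, 8.55 and 8.73 TPM, against 23.1 ± 1.28 TPM for Atm, a log2 ratio of -1.36 ± 0.06. That order rests on the exon lengths. The deposited length of Atr, 23629 bases, is the union of all annotated exons and is 2.92 times its longest coding transcript. With the longest coding transcript as the length, Atr was at 18.96 TPM and the ratio turned to 0.10. Chek1 stayed above Chek2 with either length.

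Among genes for break recognition, 3 of 4 stood close together. Mdc1, the scaffold bound to phosphorylated histone H2AX, was at 48.6, 48.9, 48.1 and 50.5 TPM. Mre11a and Nbn encode the nuclease and the regulatory subunit of a single break-sensing complex. Mre11a was at 47.2, 47.7, 44.95 and 47.5 TPM and Nbn at 45.4, 47.4, 47.2 and 45.9 TPM, so their ranges overlapped. Their log2 ratio was 0.01 ± 0.06, positive in 3 libraries and negative in replicate 3 (exact two-sided sign-flip p = 0.875), the only pair of the 20 without a constant sign. Trp53bp1, the 53BP1 protein that shields broken ends from resection, was the lowest of the 4 at 16.2, 15.5, 15.8 and 16.4 TPM. It was below Brca1, which promotes resection, in every library, with a log2 ratio of -0.98 ± 0.06.

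The 12 homologous recombination genes spanned a wide range, with a median of 16.2 TPM. Rad51ap1, which stimulates strand pairing, was the highest at 58.7, 60.6, 60.5 and 54.7 TPM. Rad51d, of the recombinase paralogue family, was at 41.3 ± 2.25 TPM, second by this length. With the longest coding transcript as the length it was at 32.6 TPM, below Rad54l and Rad52. Brca1, a ubiquitin ligase subunit that recruits the recombination machinery (chr11:101488764-101551955, minus strand), was at 31.5 ± 0.65 TPM, and its partner Bard1 at 23.1 ± 0.351 TPM. The log2 ratio of Brca1 to Bard1 was 0.44 ± 0.04. Rad54l, a motor protein that remodels chromatin during strand exchange, was at 30.4 ± 0.48 TPM. Rad52, an annealing factor, was at 14.3 ± 0.55 TPM, and Rad54l exceeded it by a log2 ratio of 1.08 ± 0.04.

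Brca2, a mediator of strand exchange, was at 12.8 ± 0.605 TPM and Palb2, which bridges it to BRCA1, at 11.2 ± 0.221 TPM. Their log2 ratio of 0.19 ± 0.06 turned to -0.42 with the longest coding transcript as the length, so their order is not settled by these counts. The recombinase paralogues differed most among themselves. Below Rad51d came Xrcc2 at 17.7 ± 0.761 TPM and Xrcc3, which was at 13.3, 15.5, 14.9 and 14.9 TPM. Rad51c, a subunit of both paralogue complexes, was the lowest of all 52 genes at 4.78, 4.94, 4.23 and 4.62 TPM. Rad51b was at 5.30, 7.21, 5.06 and 5.96 TPM.

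Rad51c was below Rad51b in all 4 libraries, by a log2 ratio of -0.32 ± 0.17, and the ratio kept that sign with the longest coding transcript as the length (-0.40). Per count without length it turned to 0.43, since Rad51c has the longer exons. Xrcc3, the partner of Rad51c in the smaller complex, exceeded it by 1.64 ± 0.14, and Rad51d exceeded Xrcc2, its partner in the larger one, by 1.22 ± 0.13. Both ratios were positive in 4 of 4 libraries and with either length.

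End joining split into an abundant pair and a low remainder. Xrcc6, which encodes Ku70, was at 77.2, 80.5, 75.4 and 77.3 TPM. Xrcc5, which encodes Ku80, the other subunit of the ring that grips broken ends, was at 91.6, 92.6, 92.2 and 94.5 TPM. Xrcc6 lay below Xrcc5 in every library by a log2 ratio of -0.26 ± 0.04, which turned to 0.18 with the longest coding transcript as the length. The other 4 genes lay between 5 and 13 TPM in every library, although Xrcc4 stood at 24.3 TPM with the longest coding transcript as the length. Lig4, which encodes DNA ligase IV, was at 11.3, 9.996, 11.3 and 11.6 TPM. Its partner Xrcc4, the scaffold of the final ligation step, was at 12.5, 11.4, 12.9 and 12.1 TPM. Their log2 ratio, Lig4 over Xrcc4, was -0.15 ± 0.06, and -1.54 with the longest coding transcript as the length. Prkdc, the catalytic subunit of the DNA-dependent protein kinase, was at 10.2 ± 0.269 TPM. Dclre1c, which encodes the nuclease Artemis that opens the hairpins made in receptor rearrangement, was at 5.18, 6.32, 5.68 and 5.50 TPM. Prkdc exceeded Dclre1c by a log2 ratio of 0.84 ± 0.15.

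Genes for receptor rearrangement itself were low or not detected beside these. Rag2 of the receptor recombinase had 0 counts in every library. A count of 0 allows up to 3 counts, or 0.105 CPM (the count scaled to library size) in the shallowest library and 0.0516 CPM in the deepest, counting error only. Rag1 had 2, 3, 15 and 2 counts in replicates 1 to 4. Dntt, the polymerase that adds bases at rearranged joints, was at 1.93 ± 0.362 TPM. Genes of meiotic recombination were low as well: none of 11 reached 1 TPM in any library, and the highest, Msh5, was at 0.623 ± 0.0814 TPM. Sycp3, Msh4 and Dmc1 followed at means of 0.104, 0.103 and 0.0631 TPM, and Meiob, Sycp1 and Stra8 had 0 counts.

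The 7 Fanconi anaemia genes had a median of 25.1 TPM. Fancd2 and Fanci encode the paired proteins that are ubiquitinated at a cross-link. Fancd2 was at 33.6, 32.4, 32.5 and 30.9 TPM and Fanci at 43.1, 43.5, 41.2 and 38.4 TPM, so Fancd2 was below Fanci in every library. The log2 ratio of Fancd2 to Fanci was -0.36 ± 0.05. Genes of the core ligase complex and its anchor came next: Fancm, the anchoring translocase, at 25.2 ± 0.76 TPM, Fancb at 25.1 ± 1.27, Fanca at 23.5 ± 0.953 and Fancg at 21.5 ± 1.20 TPM. Fancc, another core subunit, was the lowest at 11.2, 11.0, 9.86 and 10.4 TPM. Its deposited exon length is 2.49 times that of its longest coding transcript, with which it was at 19.2 TPM, above Fancb and Fancm at 18.3 and 18.4 TPM.

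The RecQ helicase gene Blm was at 38.4, 39.1, 40.6 and 39.7 TPM. Its relative Wrn was at 16.3, 16.4, 15.3 and 15.9 TPM. The log2 ratio of Blm to Wrn was 1.30 ± 0.08, with no overlap in any library.

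In mismatch repair, Msh6 stood far above Msh3. These are the alternative partners in the mismatch-binding complexes, MSH6 for single mispairs and MSH3 for longer loops. Msh6 (chr17:87975050-87990883, plus strand) was at 106, 111, 109 and 104 TPM and Msh3 (chr13:92211872-92355003, minus strand) at 8.90, 8.74, 8.75 and 8.75 TPM, a mean of 8.79 ± 0.0771 TPM for Msh3. The log2 ratio of 3.60 ± 0.04 was the largest of the 20 pairs on the TPM scale, a 12.1-fold difference. With the longest coding transcript as the length it was smaller but of the same sign, at 2.09. In CPM, without length, it was 2.20 and Parp1 over Parp2 was larger, at 3.01. Exo1, the exonuclease of mismatch repair and break resection, was at 33.0 ± 0.938 TPM. Pms2, a subunit of the endonuclease that nicks the mispaired strand, was at 21.6, 18.7, 19.995 and 18.2 TPM. Of the Pms2 exon bases, 5.90% overlap other genes on the same strand, where fragments were not counted, so its count leaves those fragments out.

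Base excision and single-strand break repair was the group with the highest median, 72.1 TPM, after the p53 axis at 112 TPM. Apex1, the endonuclease that cuts at abasic sites (chr14:50924968-50927139, plus strand), was at 335, 359.8, 341 and 347 TPM and ranked 458 among the 21764 coding genes. Parp1, the polymerase that marks strand breaks with ADP-ribose chains, was at 247 ± 4.96 TPM. Its relative Parp2 was at 90.9 ± 1.05 TPM, and Parp1 exceeded it by a log2 ratio of 1.44 ± 0.04. The scaffold Xrcc1 was at 32.0 ± 1.08 TPM and the DNA ligase that it carries, Lig3, at 53.2 ± 1.91 TPM. The log2 ratio of Xrcc1 to Lig3, -0.73 ± 0.08, turned to 0.18 with the longest coding transcript as the length. Ung, the glycosylase that removes uracil, was the lowest at 26.9, 24.8, 24.1 and 25.9 TPM. With the longest coding transcript as the length it was at 47.4 TPM, beside Lig3 at 47.3 TPM.

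Nucleotide excision repair, which cuts out bulky lesions such as those made by ultraviolet light, had a median of 11.8 TPM. Ercc1, a subunit of the nuclease that cuts 5′ of a lesion, was the highest at 34.7, 32.3, 33.0 and 33.5 TPM. Xpa, which verifies the damage, was at 11.4, 10.2, 10.9 and 15.3 TPM, so replicate 4 stood above the others. The damage sensors Ddb2 and Xpc were close. Ddb2 was at 10.7, 12.4, 11.6 and 11.7 TPM and Xpc at 10.1, 9.99, 11.1 and 11.3 TPM, with a log2 ratio of 0.13 ± 0.12 that is about its SD. It was -0.17 with the longest coding transcript as the length.

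**Figure D2:**
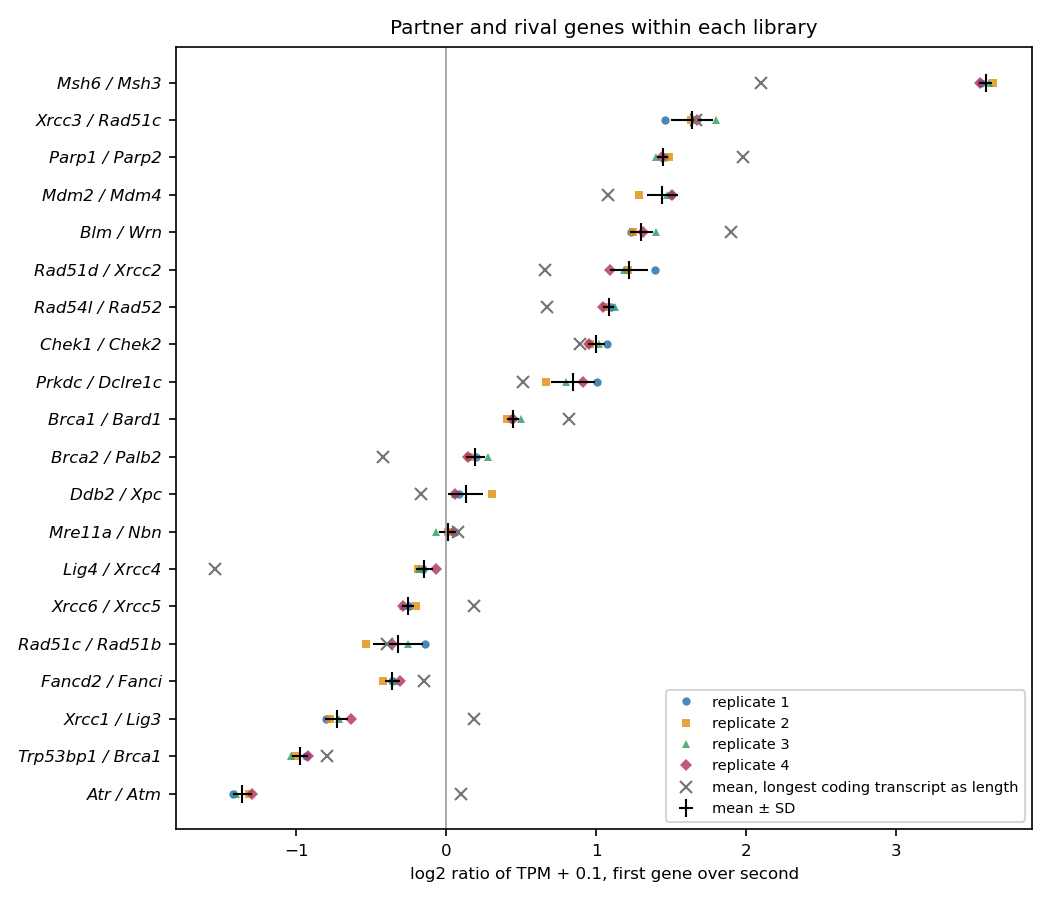
Log2 ratio of TPM + 0.1 within each library for 20 pairs of partner or rival genes, first gene over second, with a marker for each library, the mean ± SD (n = 4), and a cross for the mean when the longest coding transcript gives the length. Msh6 over Msh3 stands furthest right at 3.60, and for 5 pairs the cross lies on the other side of 0.

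Of the 20 pairs, 19 had the same sign in 4 of 4 libraries. The spread between libraries was therefore small beside most ratios, and the choice of length was the larger source of doubt. It reversed Atr/Atm, Brca2/Palb2, Xrcc6/Xrcc5, Xrcc1/Lig3 and Ddb2/Xpc when the longest coding transcript replaced the union of exons. That alternative, added after the data were seen, raised 12 of the 52 levels by more than 1.5 times and lowered none by as much. Trp53 then stood at 264 TPM, Rad54l at 56.3 TPM, Rad52 at 35.4 TPM, Xrcc1 at 53.7 TPM and Ung at 47.4 TPM. Which transcripts Th17 cells use was not measured here.

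Levels differed little between the 4 libraries, with a coefficient of variation in TPM under 10% for 50 of 52 members. By the negative binomial deviance of the counts at edgeR's trended dispersion, with Benjamini-Hochberg adjustment over 12434 genes, 0 of the 52 members differed between libraries, where 65 genes (0.523%) did so over all genes tested. The trend comes from these same libraries, so the test asks only whether a gene varies more than genes of its level. With so small a share over all genes, 0 of 52 does not set the members apart. At an unadjusted p under 0.05, 1 of 52 members did (1.92%), against 557 of all genes tested (4.48%). The more permissive Poisson deviance with a 2-fold ratio also called 0 members, where it called 1.74% of all genes. With no ratio asked, it called 19 of 52 members, against a background of 36.6%. The median SD of log2 CPM was 0.05 over the members, against 0.07 over all genes tested, a contrast not matched for level. When genes averaging under 10 TPM were set aside, the median coefficient of variation was 3.47% in members and 3.54% in coding genes. At such levels the members were thus about as steady as other coding genes.

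The 5 members with the largest SDs were Xpa, Rad51b, Dclre1c, Xrcc3 and Pms2. Xpa had the largest SD, 0.26 on the log2 scale, from 185, 214, 362 and 375 counts. Its highest level was 1.51-fold its lowest. The edgeR deviance test gave an adjusted p of 0.485 after Benjamini-Hochberg adjustment over all genes, from 0.00694 unadjusted, and the adjusted p ran between 0.34 and 1 over the alternatives. Without replicate 4, the ratio of highest to lowest fell to 1.11. Rad51b had an SD of 0.23 with 116 to 227 counts per library (edgeR adjusted p = 1). Dclre1c had an SD of 0.12, and Xrcc3 and Pms2 0.10 each. At the other end, Msh3 had a coefficient of variation of 0.877% in TPM, the smallest of the 52, while 50 of 52 were under 10%.

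**Figure D3:**
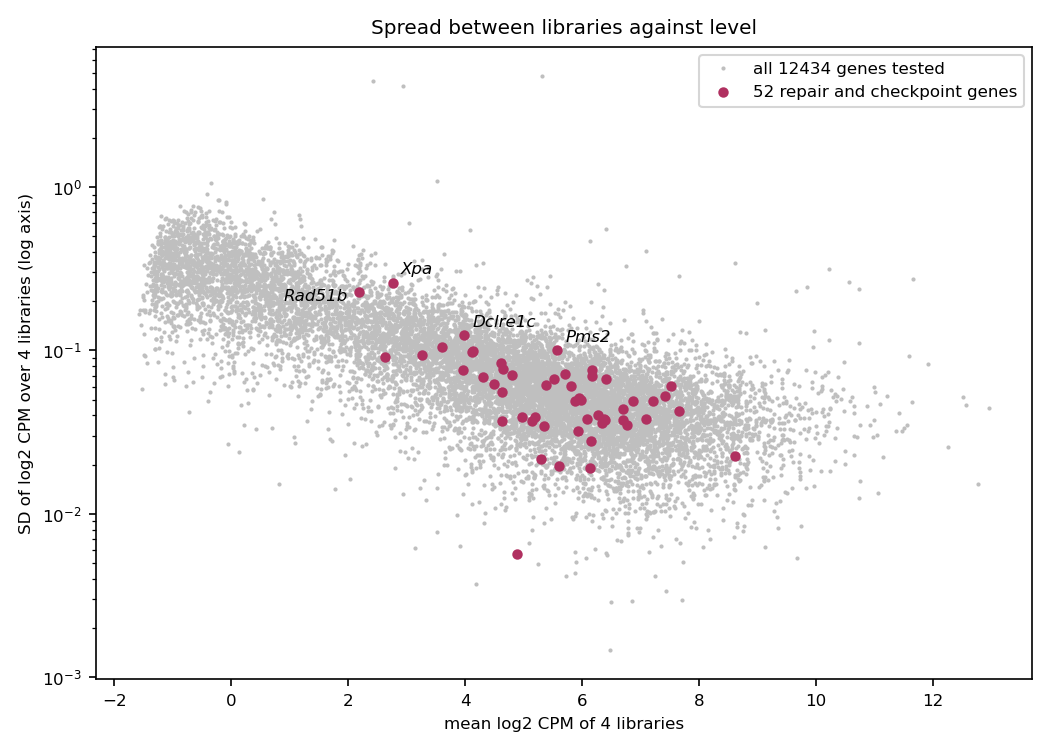
SD of log2 CPM over the 4 libraries (log axis) against mean log2 CPM for all 12434 genes tested (grey) and the 52 repair and checkpoint genes (red). Most members lie inside the grey cloud, Xpa and Rad51b have the largest SDs, 0.26 and 0.23, and the lowest red point is Msh3.

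The median shifts of the whole list were small in every library and were not tested. The median shift of the members from their own means was -0.01, 0.03, -0.01 and 0.00 in log2 CPM in replicates 1 to 4, against shifts of at most 0.00151 over all genes tested. In replicate 2, 32 of 52 members lay above their mean, against 6250 of all 12434 genes tested. In replicates 1, 3 and 4, 23, 23 and 28 members did, against 6302, 6282 and 6333 of all genes tested. Fanconi anaemia genes had median shifts of 0.04 and 0.05 in replicates 1 and 2 and of -0.06 and -0.02 in replicates 3 and 4. Nucleotide excision genes had shifts of -0.07, -0.07, -0.00128 and 0.06. None of these genes passed the test, and the shifts are given as a description. Over all genes tested, counts differed least between replicates 1 and 2, then between 3 and 4 (chi-square per degree of freedom 4.09 and 5.855).

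Other genes of these pathways had levels like those of the members. Of 75 further repair genes, 73 were at 1 TPM or more in every library, with a median of 26.3 TPM. The highest were Ddb1, an adaptor of ubiquitin ligases and the partner of DDB2, at 673 ± 13.9 TPM, the flap endonuclease Fen1 at 228 ± 7.47 TPM, Usp1, which removes ubiquitin from FANCD2, at 213 ± 4.77 TPM, and Rad23b, the partner of XPC, at 198 ± 3.10 TPM. The stable partners of Ddb2 and Xpc were thus far above them. Atrip, the partner of ATR, was the lowest at 0.461, 0.457, 0.643 and 0.492 TPM. In the deposited gene models, 49.9% of its exon bases overlap another gene on the same strand, and fragments there were left uncounted, so this value does not measure the transcript well. None of the 75 genes differed between libraries in the edgeR deviance test, 1 did at an unadjusted p under 0.05 (1.33%, against 4.48% of all genes tested), and none did in the Poisson test with a 2-fold ratio.

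Replication fork genes are listed for comparison, although cell division itself was not measured. All 19 passed 1 TPM in every library and their median was 110.5 TPM, led by Mcm3 at 553 ± 15.6, the sliding clamp gene Pcna at 552 ± 18.96, Mcm5 at 437 ± 7.79 and Mcm6 at 400.5 ± 11.4 TPM. The lowest, Gins3, was at 30.5 ± 0.856 TPM. In the edgeR deviance test 0 of the 19 differed between libraries, also at an unadjusted p under 0.05. The difference between this list and the repair genes was not tested.

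Many repair genes start beside another gene on the opposite strand. A coding neighbour whose 5′ end lay within 1000 bases was found for 21 of 52 members (40.4%), against 1834 of the 10223 detected coding genes (17.9%) and 2313 of all 21764 (10.6%). In 18 of these pairs the heads point away from each other, with 21 to 798 bases between the starts and a median of 160.5. Neighbours ranged widely in function: the replication helicase gene Mcm4 beside Prkdc, the autophagy receptor gene Nbr1 beside Brca1, Npat, a factor for histone gene transcription, beside Atm, and Wrap53, a telomerase assembly factor, beside Trp53.

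A shared start region did not come with equal levels. The member was above its neighbour in every library in 8 pairs and below it in 11. Prkdc was at 10.2 TPM and Mcm4 at 385 ± 7.86 TPM, with 466 bases between their starts. Palb2 was at 11.2 TPM and Dctn5, a dynactin subunit 56 bases away, at 89.1 ± 2.32 TPM. Xpc was at 10.6 TPM and the splicing gene Lsm3, 40 bases away, at 73.1 ± 3.54 TPM. In the other direction, Apex1 was at 346 TPM and Osgep, a tRNA modification enzyme 75 bases away, at 16.2 ± 0.674 TPM. Rad51c was at 4.64 TPM, and Tex14, a gene of germ cells 111 bases away, at 0.0996 ± 0.0745 TPM.

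Brca1 and Nbr1 were the most alike. Brca1 was at 31.1, 31.3, 32.4 and 31.1 TPM, and Nbr1, 194 bases away, was at 32.2, 29.7, 30.5 and 26.9 TPM, so that the order differed between libraries. Atm was at 24.7, 23.3, 22.8 and 21.6 TPM and Npat, 307 bases away, at 48.8, 48.3, 48.3 and 44.8 TPM. Trp53 was above Wrap53 (51.3 ± 1.90 TPM, 104 bases away) in all 4 libraries. Counting was by strand, so fragments of the opposite gene were not added to a member.

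**Figure D4:**
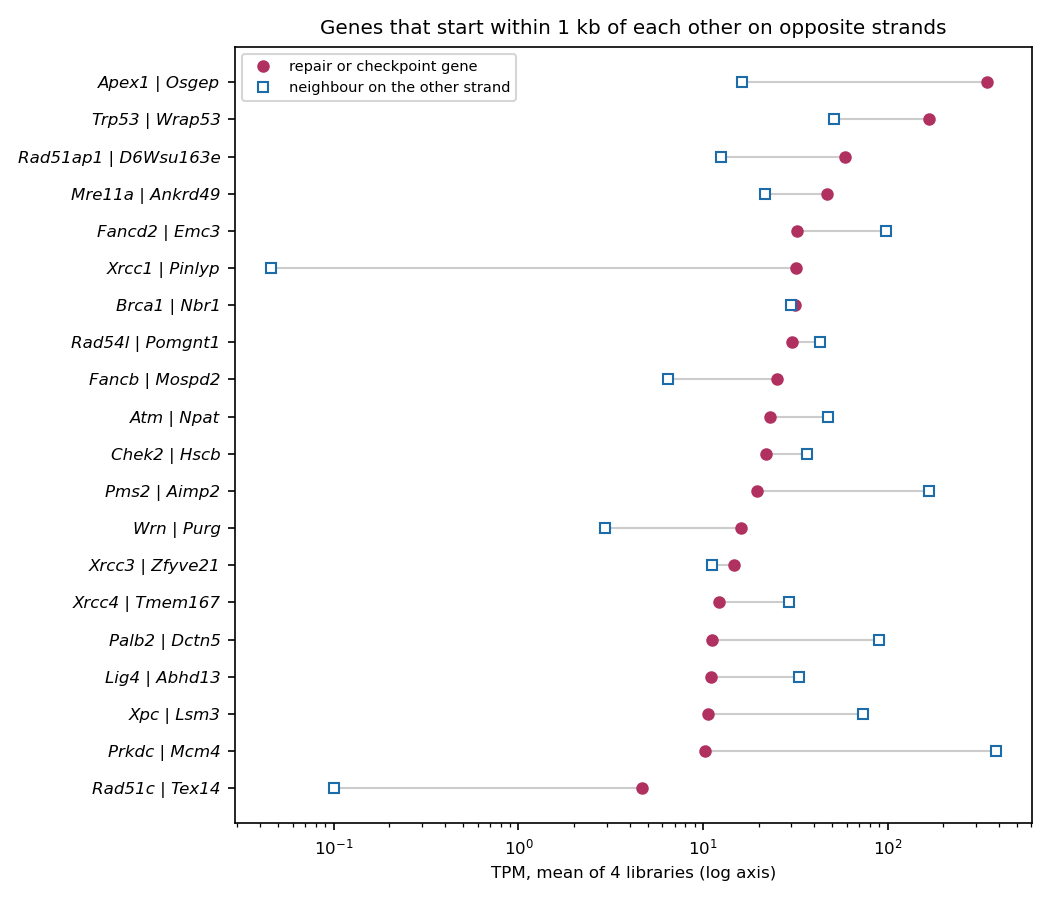
Mean level in TPM (4 libraries, log axis) of 20 of the 21 repair or checkpoint genes with such a neighbour (filled circles) and of the coding gene that starts within 1 kb on the other strand (open squares), sorted by the level of the repair or checkpoint gene. The neighbour is lower in every library in 8 of the pairs shown; Prkdc and Mcm4 are far apart at 10.2 and 385 TPM.

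Promoters were searched for words that cell cycle factors are known to bind. RefSeq promoter windows on GRCm38.p6, from 250 bases before to 50 bases after the start, were matched by symbol for 43 of the 52 members, 41 of them with a start within 500 bases of the deposited 5′ end. The E2F family drives genes of the start of S phase, and its words were spelled TTTGGCGC, TTTGCCGC, TTTCGCGC and TTTCCCGC, on both strands. Such a word was present in 9 of the 43 windows (20.9%), against 375 of 8217 windows of detected coding genes (4.56%) and 484 of 16469 of all coding genes (2.94%). CCAAT, the word of factor NF-Y, was present in 25 of 43 (58.1%), against 39.7% and 38.7%. TTTGAA, the cell cycle homology region word of genes that peak in mitosis, was present in 2 of 43 (4.65%), against 11.5% and 15.6%. The windows had a median of 59.7% G and C, against 61.3% in detected coding genes. A match is a description of letters and not a bound site, and no test of the difference was made.

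The words of 8 of the 9 windows are shown with 9 bases on each side, 5′ to 3′ on the strand of the gene. Capitals mark the E2F word, by which these windows were picked.
Bard1: gccgctcagTTTCCCGCtcaggaagt
Brca2: taggccacaGCGGGAAAcagacacac
Chek2: ggattagccGCGGGAAAccaagacgt
Fancg: tcttttcagTTTCCCGCggaaccgtc
Mdc1: ttcagcctgTTTCCCGCcggtagccg
Msh6: cctcccgacTTTCCCGCcagcggcgg
Rad51c: cccgcgaggGCGGGAAAagcaagggg
Xrcc6: ggggtggaaGCGGGAAAtgcgagtgg

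On GRCm38.p6 these stretches lie at chr1:71103165-71103190 (Bard1), chr4:43010337-43010362 (Fancg) and chr11:87404943-87404968 (Rad51c) on the minus strand. On the plus strand they lie at chr5:150522444-150522469 (Brca2), chr5:110839822-110839847 (Chek2), chr17:35841473-35841498 (Mdc1), chr17:87975056-87975081 (Msh6) and chr15:82016314-82016339 (Xrcc6). In all 8 the word was TTTCCCGC or its reverse complement GCGGGAAA. The word began 209 bases before the RefSeq start in Bard1, 168 in Brca2, 152 in Chek2, 52 in Fancg, 46 in Xrcc6, 16 in Mdc1 and 5 in Rad51c, and 15 bases after it in Msh6. The Xrcc6 window belongs to a start inside the deposited gene model. Genes with the word were not the highest: their median was 21.8 TPM, with Rad51c (4.64 TPM) and Msh6 (107 TPM) at the ends, against 27.9 TPM for the 34 without it, which ran from Dclre1c (5.67 TPM) to Apex1 (346 TPM).

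**Figure D5:**
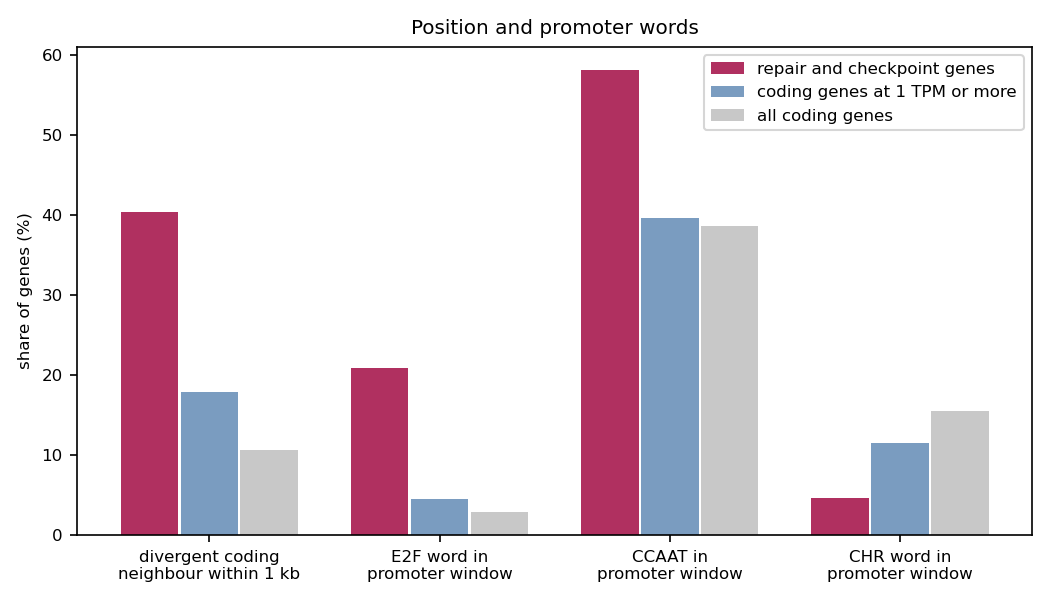
Share of genes in percent with a divergent coding neighbour within 1 kb, and with an E2F word, CCAAT or the TTTGAA word in the promoter window, for the repair and checkpoint genes, detected coding genes (1 TPM or more in each library) and all coding genes. The first set has the tallest bar for the neighbour (40.4%), E2F (20.9%) and CCAAT (58.1%) and the shortest for TTTGAA (4.65%).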

How the data were processed

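The authors deposited whole-number fragment counts for each gene. Per the file headers, featureCounts 1.4.6-p4 counted read pairs with both ends mapped under the reverse strand setting (option 2), against GENCODE M13 gene models on mm10. Which aligner was used is not stated in the labels or headers. The counting output is named for 48 hours, which the labels do not repeat. Fragments on several loci or several genes were not counted. Per the labels the RNA is total RNA, but the library protocol they link to is for poly(A) RNA.

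Here, TPM and CPM were computed from the deposited counts and exon lengths, with gene names and types from GENCODE M21, matched without version for 50376 of 50600 genes. The members and lists were chosen with earlier results of these data known. Every member is named with its level; values in every library are given for the highest and lowest member of each role, for members of pairs that change sign between libraries or without length scaling, and for the 5 members with the largest SD of log2 CPM. Of the other lists, the highest 4 and the lowest gene are named.

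Pairs were compared as log2 of TPM + 0.1 (scipy 1.17.1, exact sign-flip permutation test). Variation between libraries was tested with edgeR 4.0.16 in R 4.3.3 (TMM factors 0.997 to 1.01, default filter, 12434 genes) by a negative binomial deviance that used the trended dispersion and 3 degrees of freedom, since a single group offers no contrast. The Poisson rule asked for a 2-fold ratio with a prior count of 0.5. Log2 CPM used a prior count of 2. Alternatives used DESeq2 1.42.0 size factors or dispersion trend, other thresholds, pseudocounts and filters, each replicate left out, and the longest coding transcript as the length. Of 52 members, 42 share no 100-base window with another annotated transcript, and Mdm4 and Pms2 share over 1%. No library was a copy of another (chi-square between counts of 4.09 to 11.1 per degree of freedom). The value was 4.09 between replicates 1 and 2 and 5.855 between 3 and 4. For the other pairs it ran from 8.286 to 11.1. What sets these pairs of replicates apart was not tested. Some genes and 1 promoter window are not reported here.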

Additional observations from a re-analysis of the deposited data

Results flagged for a closer look

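In 3 of 52 members, 1 library lay apart from the other 3, with a gap to its nearest value that passed Dixon's 95% critical value; chance gives about 1 in 20 such groups. Brca1 was highest in replicate 3 at 32.4 TPM, against 31.1 to 31.3 TPM in the others. Msh3 was highest in replicate 1 at 8.90 TPM, against 8.74 to 8.75 TPM, a gap within the narrowest spread of all members. Xrcc1 was lowest in replicate 1 at 30.4 TPM, against 32.4 to 32.7 TPM. None of the 3 passed the edgeR deviance test. The Poisson deviance test, which allows for counting error only, gave adjusted p of 0.138 for Brca1, 0.998 for Msh3 and 0.0647 for Xrcc1.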

How the results depend on the processing

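All 52 members stayed at 1 TPM or more under every alternative at that threshold, and 51 passed 5 TPM. No member varied between libraries under any alternative, except that the Poisson test with no ratio called 19. Over all genes, the 65 genes that varied became 113 with every gene that had a count, 18 with a 2-fold ratio, and 32 to 49 with a replicate left out (32 without replicate 4, 35 without replicate 1); DESeq2's dispersion trend gave 69. The 216 of the Poisson rule became 1098 with every gene that had a count, 4550 with no ratio, and 140 to 156 with a replicate left out (140 without replicate 4).

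Of 20 pairs, 10 changed sign in no alternative. In CPM, without length, the log2 ratio was -0.10 for Mdm2/Mdm4, 0.43 for Rad51c/Rad51b, 0.55 for Xrcc6/Xrcc5, 0.15 for Lig4/Xrcc4, 0.10 for Fancd2/Fanci and -0.87 for Ddb2/Xpc. With the longest coding transcript it was 0.10 for Atr/Atm, -0.42 for Brca2/Palb2, 0.18 for Xrcc6/Xrcc5, 0.18 for Xrcc1/Lig3 and -0.17 for Ddb2/Xpc. With 1 replicate left out, Mre11a/Nbn ranged from -0.00353 without replicate 1 (-0.000906 without replicate 4) to 0.0385 without replicate 3; it was 1.24 in CPM and 0.08 with the longest coding transcript. The longest-transcript alternative was chosen after seeing the data. No pairing of libraries between groups was possible because the libraries form a single group. Depth limits Rad51b, Rad51c and Xpa most, whose counts start at 116, 179 and 185 in a library.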
